A study of Mus musculus with 12 samples.

Results

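Col1a1, Col3a1, Col4a1, Fn1, Pdgfrb, Pecam1, Cdh5, Eng, Cd34 and Vegfa are 10 of the 770 genes on the nCounter mouse PanCancer Immune Profiling Panel, and were chosen by name as the panel's genes of the extracellular matrix and of blood vessels. They were followed across 12 A20 tumors. Fibrillar collagens, made mainly by fibroblasts, give connective tissue its strength, while type IV collagen forms the basement membrane under the endothelium and fibronectin links matrix to integrins on cells. Endothelial cells hold to one another through PECAM1 and VE-cadherin, are wrapped by pericytes that carry PDGFRB, and sprout when VEGFA binds its receptors. A20 cells are lymphoma B cells, and these genes are best known from the stroma and vessels of a host, although Vegfa can be made by many cell types.

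A20 is a B-cell lymphoma line from a Balb/c mouse, and it was implanted under the skin of female Balb/c mice aged 7 to 8 weeks at 5000000 cells per mouse. From about day 7, the tumors received 3 intratumoral injections, 1 every other day, and were collected 2 h after the last. The PBS group (n = 4) received phosphate-buffered saline. The GLA-SE group (n = 4), whose drug is also called G100, received 10 µg of the TLR4 agonist glucopyranosyl lipid A in 50 µl of a 2% stable oil-in-water emulsion. The SE group (n = 4) received the emulsion without the agonist. All 3 groups carried the same tumor line, the hosts kept their own immune and stromal cells, and each tumor was taken from a separate mouse.

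Each value is a count of barcoded probes, and the total per tumor was 810260 to 1612415. Tumors were put on one scale by the geometric mean of 16 reference genes, which gives normalized counts, and the other 750 genes of the panel were tested. Probes differ in how well they bind, so a count is compared here between tumors and not read as the level of one gene against another. As a measure of counting precision, deposited counts were 55 to 182 for Pdgfrb, the least counted of the 10, and 2143 to 44738 for Col3a1. B-cell transcripts, which mark the implanted line, were present in every tumor, with a summed normalized count of 8 marker genes of 14090 to 23283.

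The tumor SE replicate 4 stood apart from the others. Its reference genes had a geometric mean of 927 counts, against 1501 to 2806 in the other SE tumors, so its counts were scaled up the most. The 4 epithelial and mesothelial marker genes (Cdh1, Epcam, Msln, Muc1) summed to 6586 normalized counts in SE replicate 4 and to 1953 in SE replicate 3, against 305 and 316 in the other 2 SE tumors, 201 to 534 with PBS and 430 to 524 with GLA-SE. The 5 mast cell markers (Cma1, Fcer1a, Kit, Ms4a2, Tpsab1) summed to 2848, 529, 109 and 113 in SE replicates 4, 3, 1 and 2, against 137 to 177 with PBS and 246 to 409 with GLA-SE. Every comparison that uses the SE group is therefore given with and without SE replicate 4.

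RefSeq promoter sequences were at hand for 5 of the 10 genes, on the GRCm38.p6 build. The windows below are the 250 bases before the start used by the RefSeq promoter entry, for the 4 of these 5 genes called higher in GLA-SE tumors. The genes encode 1 fibrillar collagen, 1 basement membrane collagen and 2 endothelial surface proteins, and are shown because they were called in the same direction. For Col4a1, on the minus strand, that start lies within the annotated gene, which reaches position 11312889, so part of the window does too. Capitals mark 3 short motifs, searched on both strands. The first is TATAAA, the letters of a TATA box. A second is CCAAT, which reads attgg on the opposite strand. The last is GGAAG, the core that ETS factors recognize, which reads cttcc on the opposite strand. The motifs do not overlap in these windows.
Col3a1, chr1:45311288-45311537, plus strand: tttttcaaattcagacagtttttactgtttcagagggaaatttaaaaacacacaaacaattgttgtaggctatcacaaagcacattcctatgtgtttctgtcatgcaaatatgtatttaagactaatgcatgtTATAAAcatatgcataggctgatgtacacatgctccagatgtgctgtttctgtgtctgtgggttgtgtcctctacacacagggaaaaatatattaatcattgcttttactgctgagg
Col4a1, chr8:11312827-11313076, minus strand: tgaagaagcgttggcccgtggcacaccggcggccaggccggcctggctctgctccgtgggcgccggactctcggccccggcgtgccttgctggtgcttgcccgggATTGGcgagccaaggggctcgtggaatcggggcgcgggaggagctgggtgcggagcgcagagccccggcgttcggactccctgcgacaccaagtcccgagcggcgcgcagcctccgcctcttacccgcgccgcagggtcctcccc
Eng, chr2:32646345-32646594, plus strand: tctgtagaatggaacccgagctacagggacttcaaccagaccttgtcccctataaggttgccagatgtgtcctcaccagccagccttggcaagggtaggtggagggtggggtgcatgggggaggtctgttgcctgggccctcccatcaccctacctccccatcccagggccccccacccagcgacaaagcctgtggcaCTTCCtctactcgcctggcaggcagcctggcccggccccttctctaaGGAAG
Cd34, chr1:194938571-194938820, plus strand: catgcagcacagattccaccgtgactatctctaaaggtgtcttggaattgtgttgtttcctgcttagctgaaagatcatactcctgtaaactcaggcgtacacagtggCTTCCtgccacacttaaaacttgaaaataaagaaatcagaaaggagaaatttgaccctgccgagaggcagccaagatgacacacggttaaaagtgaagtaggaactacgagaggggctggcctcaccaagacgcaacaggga

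TATAAA was found only in the Col3a1 window, with its first base at -117 from the start, and 12.4% of the 32851 promoters of the RefSeq table hold it in a window of this length, counting both strands. CCAAT was found only in the Col4a1 window, at -145 on the opposite strand, and 33.8% of all promoters hold it. GGAAG was found at -52 and -5 in Eng and at -142 in Cd34, and 64.1% of all promoters hold it. No motif was found in all 4 windows, which says only that its letters are not in some of them.

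GLA-SE tumors were compared with PBS tumors to ask how these genes differed after the agonist in its emulsion, a comparison that does not set the agonist apart from the emulsion. Of the 10 genes, 9 were higher in GLA-SE tumors by edgeR's quasi-likelihood test, all but Vegfa, and 0 were lower, while 68.8% of all tested genes were called in either direction and 68.4% were higher. The panel as a whole thus moved up on this scale, by a median log2 fold change of 0.90, and the 10 genes moved up by a median of 1.07. Col1a1 and Col3a1, the fibrillar collagens, were 3.26-fold and 3.11-fold higher, and the other 7 were 1.90-fold to 2.22-fold higher. In bulk tumors, more cells of a type and more RNA per cell cannot be told apart.

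**Figure D1:**
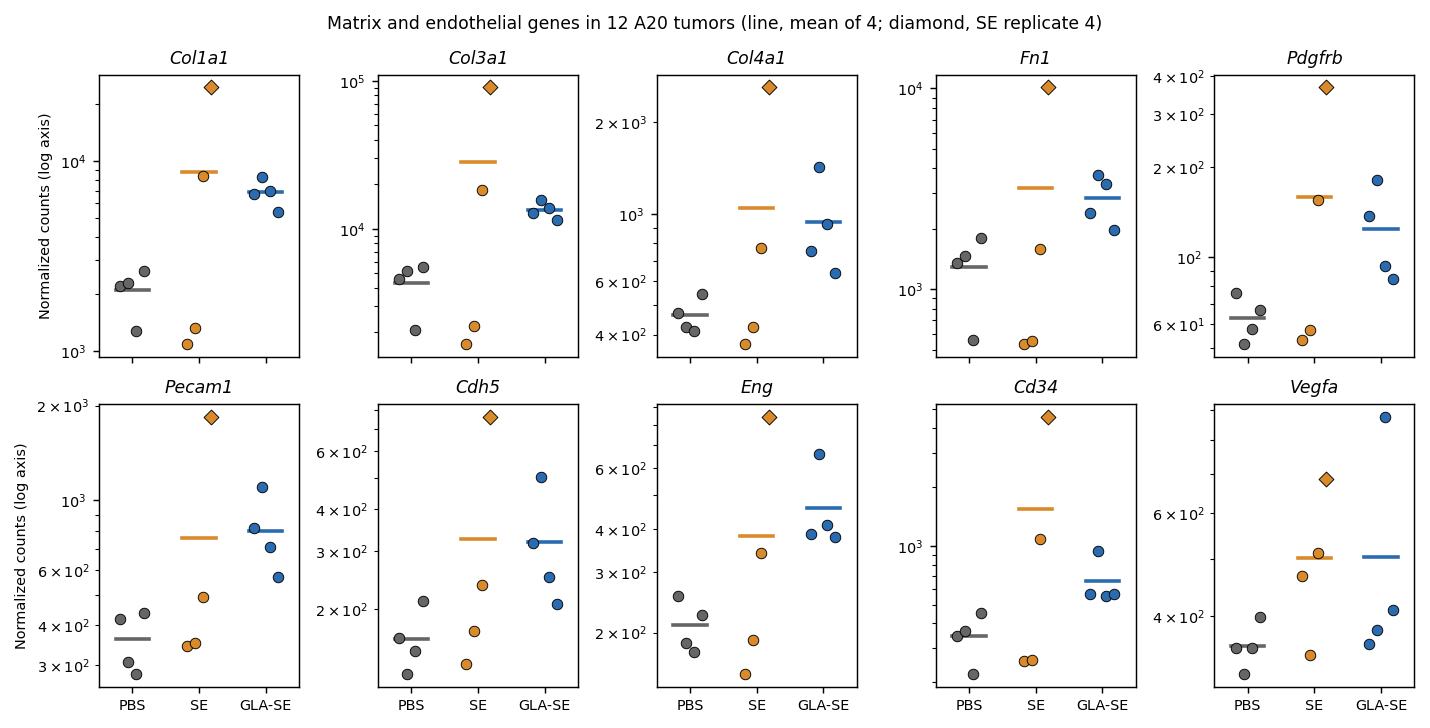
Normalized counts (log axis) of the 10 genes in each of the 12 tumors, by group, with a line at the mean of 4 tumors and a diamond for SE replicate 4. GLA-SE tumors lie above all PBS tumors for 8 of the 10 genes on this reference-gene scale, and the SE tumors spread from the PBS level or below to the highest value of the 12 in 9 of the 10 genes.

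Col1a1 encodes the main chain of type I collagen. Its normalized count was 2191, 2292, 1277 and 2634 in PBS replicates 1 to 4 and 6743, 8210, 6965 and 5421 in GLA-SE replicates 1 to 4. The lowest GLA-SE tumor had over 2 times the count of the highest PBS tumor, and the log2 fold change was 1.70 ± 0.23 (standard error, n = 4 per group), with an edgeR adjusted p of 0.000428. Col3a1, which encodes type III collagen, a partner of type I in loose connective tissue, was at 4566, 5147, 2066 and 5507 in the PBS tumors and at 12769, 15721, 13756 and 11481 in the GLA-SE tumors. The groups were again apart, by a log2 fold change of 1.64 ± 0.28 (edgeR's adjusted p = 0.00138). PBS replicate 3 was the lowest PBS tumor for both collagens.

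Col4a1, the basement membrane collagen, was at 473, 422, 412 and 545 in the PBS tumors and at 757, 1426, 926 and 637 in the GLA-SE tumors. The groups did not overlap, and GLA-SE replicate 2 was highest, with a log2 fold change of 1.02 ± 0.25 and an edgeR adjusted p of 0.00675. Fn1, which encodes fibronectin, was at 1358, 1464, 560 and 1792 in the PBS tumors and at 2401, 3712, 3327 and 1961 in the GLA-SE tumors. The highest PBS and the lowest GLA-SE tumor were close, and the log2 fold change was 1.14 ± 0.35 (adjusted p = 0.0173, edgeR). Pdgfrb, the receptor by which pericytes and fibroblasts sense platelet-derived growth factor, was at 75.8, 51.4, 57.7 and 66.8 in the PBS tumors and at 137, 180, 93.8 and 84.9 in the GLA-SE tumors. Every GLA-SE tumor was above every PBS tumor, with a log2 fold change of 0.98 ± 0.28 and an edgeR adjusted p of 0.0133.

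The endothelial surface genes rose by about 2-fold. Pecam1, an adhesion molecule at endothelial junctions that platelets and some leukocytes also carry, was at 420, 306, 281 and 437 in the PBS tumors and at 816, 1105, 711 and 570 in the GLA-SE tumors. No values overlapped, and the log2 fold change was 1.15 ± 0.24 (adjusted p = 0.00323, edgeR). Cdh5, which encodes VE-cadherin of the adherens junction and is largely restricted to endothelium, was at 163, 127, 149 and 211 in the PBS tumors and at 317, 503, 250 and 208 in the GLA-SE tumors. Here GLA-SE replicate 4 lay just below PBS replicate 4, so the groups overlapped, and the log2 fold change was 0.97 ± 0.30 (adjusted p = 0.0177, edgeR), with a two-sided exact permutation p of 0.0571.

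Eng encodes endoglin, a TGF-beta co-receptor of proliferating endothelium. It was at 255, 187, 175 and 225 in the PBS tumors and at 387, 659, 411 and 379 in the GLA-SE tumors, and the groups were apart, by a log2 fold change of 1.12 ± 0.22 (edgeR's adjusted p = 0.00278). Cd34, a sialomucin of endothelium, blood progenitors and some fibroblasts, was at 346, 366, 221 and 455 in the PBS tumors and at 564, 945, 554 and 568 in the GLA-SE tumors. In 3 GLA-SE tumors Cd34 was nearly equal and GLA-SE replicate 2 was higher, and the log2 fold change of the groups was 0.92 ± 0.26 (edgeR's adjusted p = 0.0125).

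Vegfa, the ligand, differed from the other 9 genes in that it was not called. It was at 353, 319, 352 and 399 in the PBS tumors and at 358, 379, 874 and 410 in the GLA-SE tumors. GLA-SE replicate 3 alone was well above the PBS range, and the log2 fold change was 0.51 ± 0.29 (adjusted p = 0.148, edgeR), with a 95% interval of -0.15 to 1.16. Without GLA-SE replicate 3 it was 0.10.

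GLA-SE tumors lay above all PBS tumors for 8 of the 10 genes, as they did for 63.7% of the tested genes, and the exact permutation p was 0.0286, the smallest that 4 against 4 tumors allow, for each of the 8. The 9 calls held in all 8 fits that left out 1 tumor. Within the GLA-SE group, replicate 2 had the highest value of 9 genes and replicate 4 the lowest of 8, and within the PBS group replicate 4 was highest for 8 genes and replicate 3 lowest for 7.

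The size and the direction of these changes depended on the scale. Relative to the panel's median change, Col1a1 was 0.80 and Col3a1 0.74 (log2) above it, Fn1, Pecam1 and Eng were 0.22 to 0.25 above it, Col4a1, Pdgfrb, Cdh5 and Cd34 were 0.02 to 0.12 above it, and Vegfa was 0.39 below it. When tumors were scaled to the panel median, 8 of the 10 genes had a log2 fold change below 0 and 2 above, Col1a1 at 0.42 and Col3a1 at 0.36, and Vegfa was called lower (-0.85, adjusted p = 0.00758, edgeR). With TMM scaling Col1a1 and Col3a1 alone were called, at 0.80 and 0.73. With all 12 tumors in one fit, whose shared spread takes in the SE tumors, 0 of the 10 genes were called and the edgeR adjusted p values ran from 0.0798 for Eng to 0.328 for Cd34, and with SE replicate 4 left out of that fit 7 were called. The calls of the 12-tumor fit over all tested genes are given in the last section. Those of the fit without SE replicate 4 are not given for this comparison, so the 7 cannot be set beside a panel share. Col1a1 and Col3a1 kept a log2 fold change above 0 under every scaling tried.

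**Figure D2:**
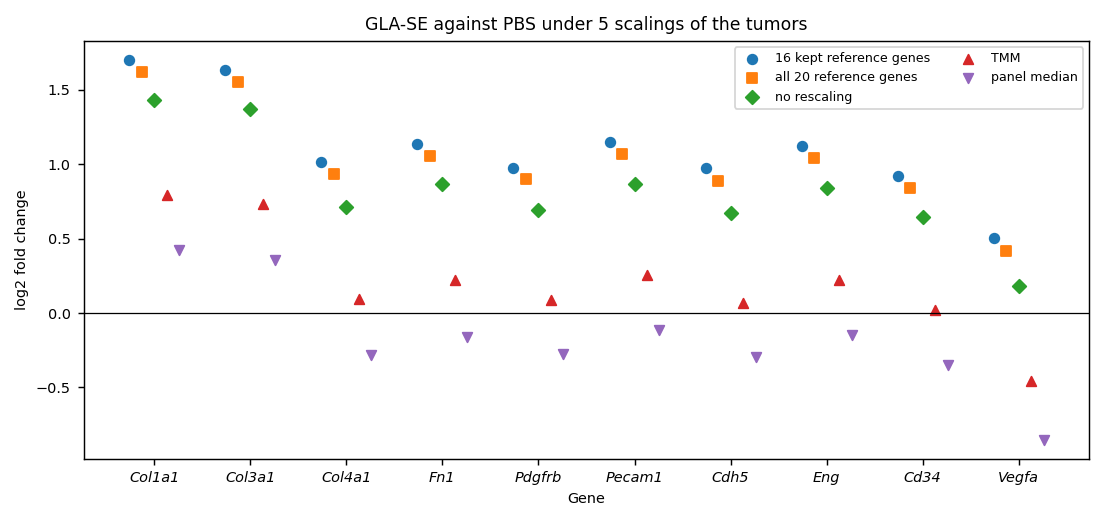
log2 fold change of each gene in GLA-SE against PBS tumors under 5 scalings of the tumors, 1 symbol per scaling. The order of the genes is similar under each scaling while the level shifts, so that with panel median scaling only Col1a1 (0.42) and Col3a1 (0.36) stay above 0.

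Other genes of the same pathways on the panel, 42 in all, were read beside the 10. In GLA-SE against PBS tumors 30 of the 42 were higher and 0 lower. Among 8 other matrix, fibroblast and mural genes 6 rose (median log2 fold change of the 8, 0.96), and the largest rises were of Spp1, which encodes the matrix protein osteopontin (2.84 ± 0.48, adjusted p = 0.00136, edgeR), of Thbs1, which encodes the antiangiogenic glycoprotein thrombospondin 1 (2.22 ± 0.54, adjusted p = 0.00688), and of Fap, a protease of activated fibroblasts (1.19 ± 0.35, adjusted p = 0.0151). Spp1 ran from 120 to 372 in the PBS tumors and from 922 to 2812 in the GLA-SE tumors, without overlap, whereas Fap overlapped.

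Among 13 other endothelial genes 9 rose (median of the 13, 0.96). Sele, the E-selectin that inflamed endothelium displays, went from 10.2 to 17.1 in the PBS tumors to 28.1 to 105 in the GLA-SE tumors (2.28 ± 0.40, adjusted p = 0.00153, edgeR). Vcam1, another leukocyte adhesion molecule, also found on other stromal cells and macrophages, rose by 1.77 ± 0.28 (adjusted p = 0.00106), and Thbd, which encodes the anticoagulant receptor thrombomodulin, by 1.60 ± 0.41 (adjusted p = 0.00845). Both adhesion molecules changed by more than the junction genes Pecam1 and Cdh5 in point estimate, a difference that was not tested. Icam2, Mcam, Lyve1 and Dll4 were not called, with log2 fold changes of -0.24, 0.53, 0.49 and 0.34.

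Of 6 other angiogenic ligands and hypoxia genes 4 rose (median of the 6, 0.98). They included Hif1a, the oxygen-sensitive transcription factor subunit (1.26 ± 0.23, adjusted p = 0.00166, edgeR), Vegfc, a lymphatic growth factor (1.04 ± 0.22, adjusted p = 0.00402), and Pdgfc, a ligand of PDGF receptors (0.94 ± 0.24, adjusted p = 0.00775). Vegfa, itself a target of HIF1A in hypoxic cells, was not called in the same tumors. Of 7 matrix-binding integrins 5 rose (median of the 7, 0.86), led by Itga5, the alpha chain of the fibronectin receptor (1.66 ± 0.42, adjusted p = 0.00775, edgeR), and by the alpha chains of the collagen receptors, Itga1 (1.23 ± 0.23, adjusted p = 0.00194) and Itga2 (1.10 ± 0.21, adjusted p = 0.00249). Of 8 TGF-beta ligands, receptors and Smads 6 rose (median of the 8, 0.79), led by the ligand Tgfb2 (1.71 ± 0.44, adjusted p = 0.00809, edgeR), the signal transducer Smad3 (1.14 ± 0.21, adjusted p = 0.00211) and the ligand Tgfb3 (1.09 ± 0.31, adjusted p = 0.0133). These shares, like that of the 10 genes, stand beside the 68.4% of all tested genes that were higher.

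Markers of other cell types moved in the same comparison. All 9 monocyte and macrophage markers rose, with a summed level of 29049 to 37323 with PBS and 84060 to 124933 with GLA-SE. Of 8 T cell markers 5 rose (sum 990 to 2722 with PBS, 2752 to 3837 with GLA-SE), of 8 neutrophil markers 4 (285 to 335, and 1248 to 11454), of 4 NK cell markers 3 (212 to 509, and 756 to 868), of 5 mast cell markers 4 and of 4 epithelial and mesothelial markers 2. Of the 2 platelet markers, Itga2b and Ppbp, 1 rose (54.1 to 210, and 155 to 272). These counts stand beside the 68.4% of all tested genes that were higher, with a panel median log2 fold change of 0.90. The list medians were 1.62 for monocytes and macrophages, 1.42 for neutrophils, 1.34 for NK cells and 0.99 for mast cells. They were 0.82 for T cells, 0.62 for the epithelial and mesothelial list and 0.59 for platelets, below the panel median. Of 8 B cell markers 2 fell, Cd79b (-0.41, adjusted p = 0.00637, edgeR) and Ms4a1 (-0.44, adjusted p = 0.00781), and the summed B cell level was 19895 to 23283 with PBS and 16448 to 19143 with GLA-SE. No marker was at 0 in any tumor, but neither was any other gene, as the lowest deposited count was 1. The lowest deposited counts of Camp (neutrophil list) and of Msln (epithelial and mesothelial list) were both 4. The lack of a 0 therefore does not show that each cell type was present. The part of these cell types in the changes of the 10 genes was not tested.

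**Figure D3:**
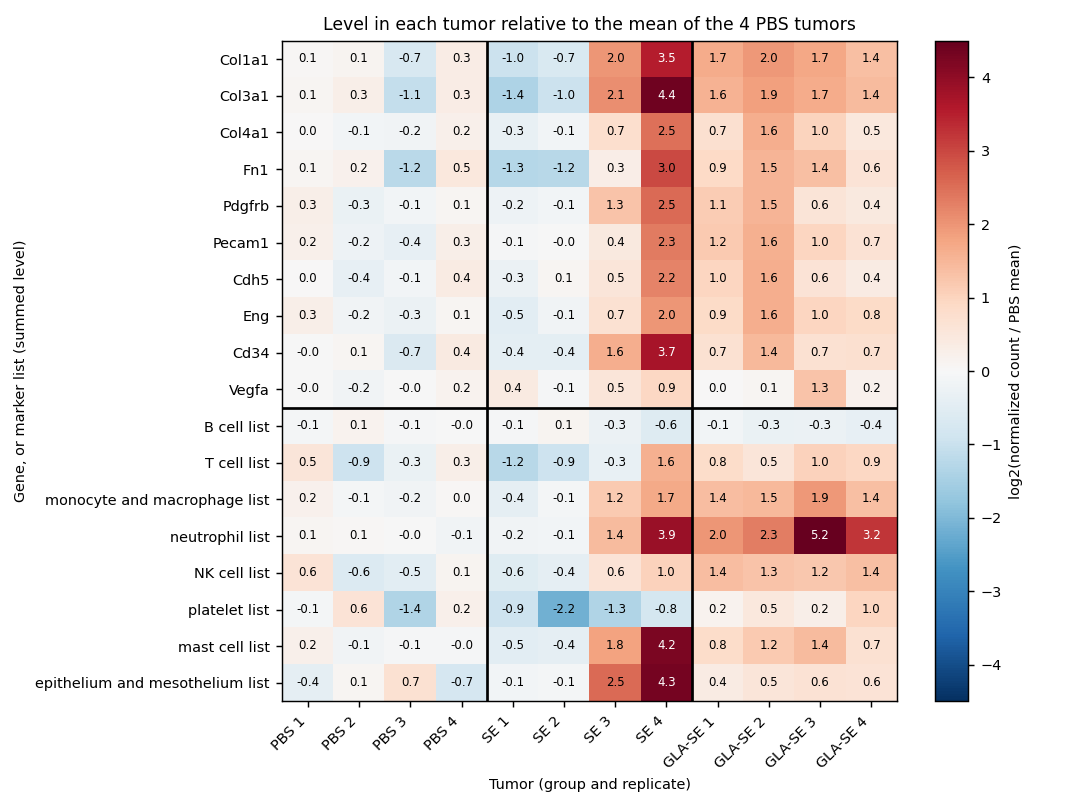
Level of each of the 10 genes (upper rows) and summed level of each marker list (lower rows) in each tumor (columns), as log2 of its ratio to the mean of the 4 PBS tumors, on the reference-gene scale. SE replicates 1 and 2 lie within or below the PBS range for 9 and 10 of the genes, and SE replicates 3 and 4 exceed every PBS tumor for 9 and 10 of the genes, Fn1 in SE replicate 3 being within the PBS range, and for the summed monocyte and macrophage, neutrophil, mast cell, and epithelial and mesothelial lists.

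SE tumors were compared with PBS tumors to see what the emulsion did without the agonist. Of the 10 genes 0 were called, as were 0% of the tested genes by edgeR, although 134 tested genes (17.9%) had an unadjusted p under 0.05, among them 1 of the 10, Cd34 (unadjusted p = 0.0475, edgeR). DESeq2 with the size factors of the reference genes called 53 tested genes, none of them among the 10. The SE tumors differed widely among themselves. On the reference-gene scale, SE replicate 4 exceeded every PBS tumor for all 10 genes and SE replicate 3 for 9. SE replicate 1 did so for 1, Vegfa, and SE replicate 2 for 0. SE replicate 1 was below every PBS tumor for 5 of the 10 genes and SE replicate 2 for 1. The median normalized count of the tested genes was 273 and 485 in SE replicates 3 and 4, against 130 to 179 with PBS. Scaled instead to the geometric mean of the tested genes, Pecam1 of SE replicate 3 (406) was below its PBS range (418 to 593). Vegfa of SE replicate 4 (360) was then below its PBS range (423 to 541). Col1a1, Col3a1, Pdgfrb and Cd34 still exceeded every PBS tumor in both.

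Col1a1 was at 1083, 1316, 8349 and 24479 in SE replicates 1 to 4, and Col3a1 at 1658, 2191, 18289 and 90245. Both fibrillar collagens exceeded every GLA-SE tumor in SE replicates 3 and 4, while those in SE replicates 1 and 2 were below every GLA-SE tumor. Fn1 was at 532, 549, 1584 and 10128, so that SE replicates 1 and 2 were below the lowest PBS tumor and SE replicate 3 within the PBS range. Col4a1 ran over a smaller range, at 372, 425, 773 and 2608, and Pdgfrb was at 53.3, 57.3, 155 and 367. For these 5 genes SE replicate 4 had the highest value of all 12 tumors, 1.83 to 4.93 times the next.

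Among the endothelial genes, Cd34 in SE replicates 1 to 4 was at 258, 259, 1080 and 4565, which set SE replicates 3 and 4 above all GLA-SE tumors. Pecam1 was at 344, 353, 492 and 1840, Cdh5 at 137, 172, 235 and 763, and Eng at 152, 190, 340 and 843. For these 3 genes SE replicate 3 was 1.36 to 1.62 times the PBS mean and SE replicate 4 was 4.01 to 5.10 times it, against 3.11 and 13.2 times for Cd34. Vegfa varied least, at 469, 342, 513 and 686, and SE replicate 2 lay within the PBS range.

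The log2 fold changes for SE against PBS were 2.07 ± 0.94 for Col1a1, 2.70 ± 1.20 for Col3a1, 1.31 ± 0.96 for Fn1, 2.15 ± 0.92 for Cd34 and 0.50 to 1.32 for the other 6, with a median of 1.24 over the 10 beside 0.51 over the panel. The intervals were wide: that of Col3a1 ran from -0.07 to 5.47, and that of Pecam1 from -0.25 to 2.38. Without SE replicate 4 the median of the 10 was 0.24 beside a panel median of 0.20, Col1a1 and Col3a1 were both at 0.77, Cd34 was at 0.62 and Fn1 at -0.54, and again 0 of the 10 and 0 of the tested genes were called, with 10% of the tested genes and 0 of the 10 at an unadjusted p under 0.05. The 42 further genes had 0 calls with and without that tumor. Of these 42, SE replicate 4 had the highest SE value for 8 of the 8 matrix, 12 of the 13 endothelial, 5 of the 6 angiogenic and hypoxia, 7 of the 7 integrin and 8 of the 8 TGF-beta genes. The share of all tested genes highest in that tumor was not counted. Their median normalized count was 485 there, against 123 to 273 in the other SE tumors, so the height is not particular to these lists.

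Several cell type markers also differed among the SE tumors. In SE replicates 1 to 4 the monocyte and macrophage markers summed to 24377, 30920, 73253 and 107148, the T cell markers to 799, 976, 1478 and 5678, and the B cell markers to 20263, 22665, 17382 and 14090. Neutrophil markers ranged from 282 to 4660 over the SE tumors, NK cell markers from 223 to 676 and platelet markers from 30.7 to 80.7. The T cell and NK cell sums of SE replicate 3 lay within the PBS range, and its platelet sum was below that of SE replicate 1. The epithelial and mast cell sums are given above. SE replicate 4 was the highest SE tumor for all 4 epithelial and mesothelial, 5 mast cell, 8 T cell and 8 neutrophil markers. It was also highest for 8 of 9 monocyte and macrophage, 2 of 4 NK cell, 1 of 2 platelet and 1 of 8 B cell markers. Its median normalized count over all tested genes was likewise the highest of the SE tumors, at 485 against 123 to 273. The part of these cell types, of the low reference counts of SE replicate 4 and of the tissue that was sampled in the collagen and Cd34 values was not tested.

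GLA-SE tumors were compared with SE tumors to set the agonist apart from its carrier. Of the 10 genes 0 were called, beside 2.13% of the tested genes (16, all of them higher), and at an unadjusted p under 0.05 there were 0 of the 10 beside 18.5% of the tested genes. DESeq2 with the reference gene size factors called 108 tested genes and 0 of the 10. This comparison shares its SE tumors with the one above and its GLA-SE tumors with the first, so the 3 comparisons are not independent. The log2 fold changes of GLA-SE over SE were -0.37 (95% interval -2.41 to 1.68) for Col1a1, -1.06 (-3.61 to 1.48) for Col3a1, -0.16 (-1.61 to 1.30) for Col4a1, -0.17 (-2.26 to 1.93) for Fn1 and -0.34 (-1.87 to 1.18) for Pdgfrb. For the endothelial genes they were 0.08 (-1.23 to 1.40) for Pecam1, -0.03 (-1.39 to 1.33) for Cdh5, 0.27 (-0.98 to 1.52) for Eng and -1.23 (-3.26 to 0.81) for Cd34, and for Vegfa 0.01 (-0.82 to 0.84). All 10 intervals included 0.

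Without SE replicate 4 all 10 genes had a log2 fold change above 0, as did 89.2% of the tested genes, with a median of 0.85 beside a panel median of 0.63, and 0 of the 10 were called beside 14% of the tested genes. Fn1 was at 1.68 ± 0.47 (adjusted p = 0.0546, edgeR), Eng at 1.02 ± 0.36 (adjusted p = 0.0948) and Pecam1 at 1.01 ± 0.27 (adjusted p = 0.0504), and for these 3 the 4 GLA-SE tumors lay above the 3 SE tumors, as they did for 37.3% of the tested genes. The two-sided exact permutation p was 0.0286, the smallest that 4 against 3 tumors allow, for Eng, and 0.0571 for Fn1 and for Pecam1. Col1a1 and Col3a1, at 0.93 and 0.86, still overlapped, with SE replicate 3 above every GLA-SE tumor, and Cd34 was at 0.31. When the 11 other tumors of all 3 groups were fitted together, Fn1, Pecam1 and Eng were called higher in GLA-SE than in SE tumors, with edgeR adjusted p values of 0.0259, 0.0167 and 0.0312. That fit was chosen after seeing the data. It also called more of the tested genes than the 14% above, as counted in the last section, so these calls are not particular to the 3 genes.

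**Figure D4:**
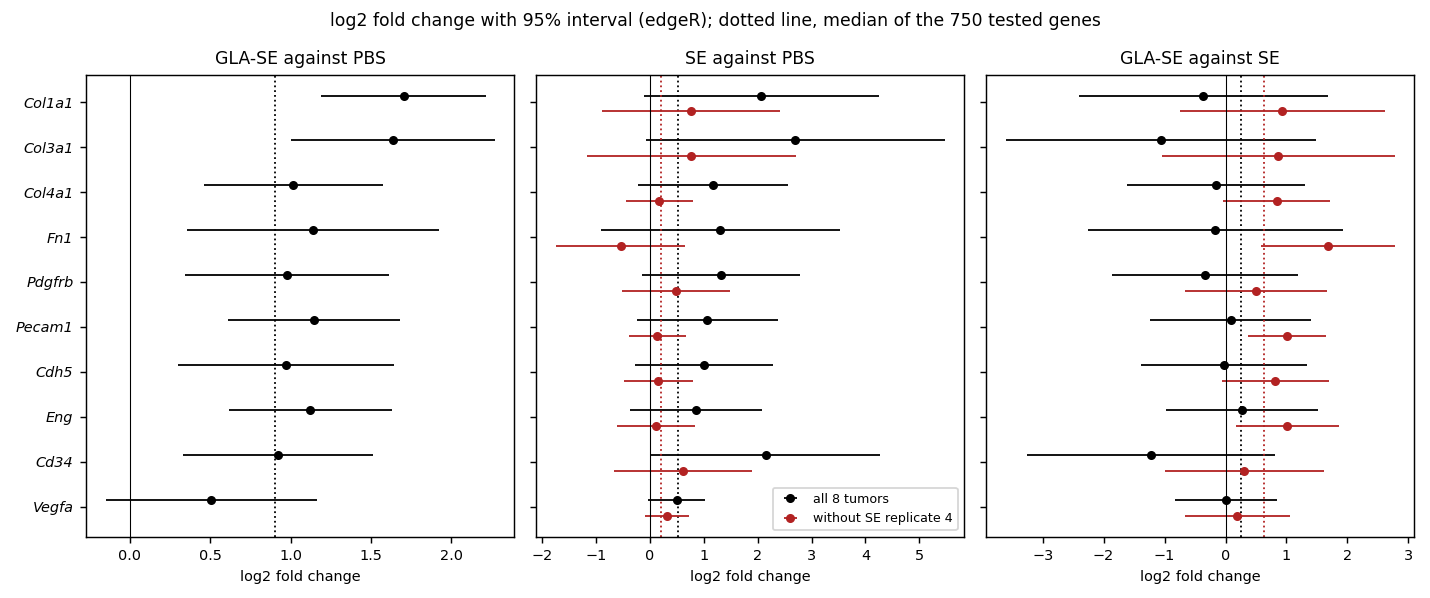
log2 fold change with its 95% interval (edgeR) for each gene in the 3 comparisons, with all tumors (black) and without SE replicate 4 (red), on the reference-gene scale; dotted lines mark the median of the 750 tested genes. In the left panel 9 intervals lie above 0, and in the middle and right panels most intervals are wider (Col1a1, 1.19 to 2.22 in the left panel and -0.11 to 4.24 in the middle panel), and the values shift when SE replicate 4 is left out.

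The sign of GLA-SE against SE for the matrix genes also depended on how tumors were averaged. edgeR compares mean counts, in which SE replicate 4 weighs most. With limma on log2(normalized count + 1), which compares means of log2 values over the same 8 tumors, Col1a1 was at 0.71, Col3a1 at 0.60 and Fn1 at 0.91, all above 0, and 0 of the 10 were called. Of the 42 further genes 1 was called, Mmp9, a gelatinase that degrades type IV collagen, at 321, 468, 442 and 274 in GLA-SE replicates 1 to 4 and at 122, 101, 107 and 127 in SE replicates 1 to 4. The groups were apart and the SE tumors close together, and the log2 fold change was 1.72 ± 0.29 (edgeR's adjusted p = 0.0229). In the PBS tumors Mmp9 overlapped the GLA-SE tumors (0.41 for GLA-SE against PBS, not called), while every SE tumor was below every PBS tumor (-1.31 for SE against PBS, also not called, with an exact permutation p of 0.0286). Without SE replicate 4, Itga1 was called too (1.36 ± 0.28, adjusted p = 0.0262, edgeR).

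Ratios between members within a tumor do not depend on the scaling, and those given here were chosen after the values had been seen and were not tested. Cdh5 over Pecam1, 2 genes of endothelial junctions, was 0.45 ± 0.07 in the PBS tumors (mean ± SD, n = 4), 0.39 ± 0.05 in the GLA-SE tumors and 0.44 ± 0.05 in the SE tumors, with SE replicate 4 at 0.41. The groups overlapped, and the tumor with the highest counts of both genes had a ratio like the rest. Col4a1 over Pecam1 was likewise close, at 1.30 ± 0.15, 1.16 ± 0.18 and 1.32 ± 0.22 in PBS, GLA-SE and SE tumors.

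Col1a1 over Pecam1 was 5.82 ± 1.26 in the PBS tumors and 8.75 ± 1.10 in the GLA-SE tumors, and in SE replicates 1 to 4 it was 3.15, 3.73, 17.0 and 13.3. The PBS and GLA-SE tumors overlapped, with PBS replicate 2 at 7.48 and GLA-SE replicate 2 at 7.43. SE replicates 3 and 4 were above, and SE replicates 1 and 2 below, all tumors of the other groups. Cd34 over Pecam1 was 0.75, 0.73, 2.19 and 2.48 in SE replicates 1 to 4, against 0.96 ± 0.19 with PBS and 0.83 ± 0.13 with GLA-SE, so the same 2 SE tumors stood out. Fn1 over Col1a1 was 0.59 ± 0.11 with PBS and 0.41 ± 0.06 with GLA-SE, and was lowest of all tumors in SE replicate 3, at 0.19. Here too the PBS and GLA-SE tumors overlapped, as PBS replicate 3, at 0.44, lay below GLA-SE replicates 2 and 3, at 0.45 and 0.48. Col3a1 over Col1a1 was 2.01 ± 0.27 with PBS and 1.98 ± 0.10 with GLA-SE, and 3.69 in SE replicate 4, the highest of the 12.

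**Figure D5:**
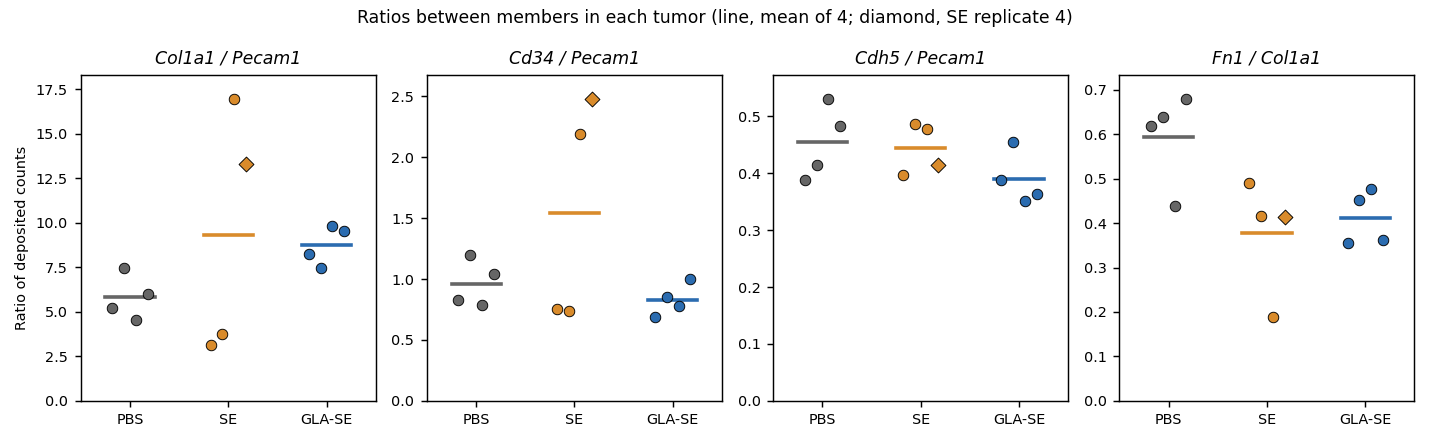
Ratio of deposited counts of 2 members in each tumor, by group, with a line at the mean of 4 tumors and a diamond for SE replicate 4; axes start at 0. Cdh5 over Pecam1 overlaps between the 3 groups, while Col1a1 over Pecam1 (17.0 and 13.3) and Cd34 over Pecam1 (2.19 and 2.48) are highest in SE replicates 3 and 4.

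The patterns of the members over the 12 tumors were compared by the root mean square difference of centred log2 values, which is a description over tumors that share reference genes. Pecam1 and Cdh5 differed by 0.18, Col4a1 from Cdh5 by 0.19 and from Pecam1 by 0.20, and Eng from Pecam1 by 0.20. Col1a1 and Col3a1 differed by 0.31, and Col1a1 from Pecam1 by 0.69. Col4a1 was thus closer to Pecam1, Cdh5 and Eng than to the fibrillar collagens, from which it differed by 0.64 (Col1a1) and 0.88 (Col3a1). Cd34 stood between, at 0.48 from Col4a1 and from Col1a1, 0.58 from Col3a1 and from Pecam1, and 0.60 from Eng. Vegfa was 0.65 to 1.38 from the other 9, and its own SD over the tumors was 0.44.

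Among 664 other genes of the panel, the nearest to Cdh5 and to Pecam1 was Tie1, an endothelial receptor, at 0.16 and 0.19. The nearest to Col1a1 was Mrc1 (0.19), which is in the monocyte and macrophage list. The nearest to Col3a1 were Mrc1 (0.39) and Vwf (0.40), the latter in the endothelial list. Fn1 was nearest to Vwf (0.31) and to Cd163 (0.36), also in the monocyte and macrophage list. Col4a1 was nearest to Smad3 (0.21) and Vegfc (0.22), and Pdgfrb to Smad3 (0.19) and Il6ra (0.22). The second nearest to Pecam1 and to Cdh5 was Smad3, at 0.24 and 0.26. Eng was nearest to Nod1 and Itgae, both at 0.18, Cd34 to Nrp1 (0.23) and Tgfb3 (0.30), and Vegfa to Traf6 (0.21) and Hcst (0.22). For comparison, the median difference to all 664 genes was 0.99 for Col1a1 and 0.66 for Col4a1.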

How the data were processed

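Probes of an nCounter panel were counted in RNA of 12 A20 tumors, and the groups come from the sample labels. The authors deposited whole-number counts of 770 genes. Their methods name nSolver normalization, but totals and reference genes differ between tumors, so the counts were treated as raw. The 10 genes, the further lists and the marker lists were chosen with earlier results of these data known.

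Each tumor was divided by the geometric mean of 16 of 20 reference genes, kept by geNorm over all tumors, which gave normalized counts. The other 750 genes were compared between 2 groups at a time by edgeR 4.0.16 (quasi-likelihood test, R 4.3.3), with no filter and no covariates. Benjamini-Hochberg adjustment ran over all tested genes, and genes under 0.05 were called. Single genes also had two-sided exact permutation tests over the 70 assignments of 4 against 4 tumors. Errors of log2 fold changes are standard errors. The code was tested on simulated data.

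All 10 genes are named, with up to 3 called genes of each further list per comparison by fold change (a group mean of at least 20) and the 2 genes nearest to each member, of which 1 is not reported here. Other endothelial genes that were not called, and 2 B cell markers, were named after their values were seen. Alternatives included limma 3.58.1 (pseudocounts of 1 and 10), DESeq2 1.42.0, TMM, the panel median, no rescaling, all 20 reference genes, a filter of 20 counts in 4 tumors, a block for the replicate number, one fit of all tumors, the methods' t-test and leaving out tumors. The fit of all tumors but SE replicate 4 was chosen after seeing the data. Precision is limited by 4 tumors per group. RefSeq promoters are on GRCm38.p6.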

Additional observations from a re-analysis of the deposited data

Results flagged for a closer look

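In 6 of 30 sets of 4 tumors (10 genes in 3 groups), 1 tumor lay far from the other 3, by a gap larger than Dixon's 95% critical value. Chance gives about 1 in 20 such sets, or 1.5 of 30, and the sets are not independent, since the genes share tumors. SE replicate 4 stood out for Fn1, at 10128 normalized counts against 532 to 1584 in the other SE tumors, for Pecam1, at 1840 against 344 to 492, and for Cdh5, at 763 against 137 to 235. GLA-SE replicate 2 stood out for Eng, at 659 against 379 to 411, and for Cd34, at 945 against 554 to 568. GLA-SE replicate 3 stood out for Vegfa, at 874 against 358 to 410. That tumor also had the highest summed neutrophil markers of the GLA-SE tumors, at 11454 against 1248 to 2933, and the highest Hif1a, Thbs1 and Sele, and the part of these cells in its Vegfa value was not tested.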

How the results depend on the processing

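For GLA-SE against PBS, 9 of the 10 genes were called in every setting that kept the reference-gene scale and fitted the 8 tumors without a block, that is with all 20 reference genes, selection within the comparison, DESeq2 with their size factors, limma, the methods' t-test, the filter and each tumor left out. The number was 6 without rescaling, 2 with TMM scaling, 2 with DESeq2's own size factors, 1 with panel median scaling (Vegfa, lower), 0 with all 12 tumors in one fit and 7 in the fit of all tumors but SE replicate 4, where Col3a1 and Cd34 were lost. Panel median scaling moved the panel's median log2 fold change from 0.90 to -0.40 and TMM to -0.01. The replicate number as a block left 8, without Cdh5. Same-numbered tumors are of separate mice, and their deviations were at most weakly correlated (-0.25 to 0.18, 4 of 12 tumors closest to their own number). The numbers were therefore not treated as a pairing, although so few tumors cannot exclude a shared factor. The number called stayed 0 in SE against PBS in every setting, and in GLA-SE against SE in all but the fit of all tumors but SE replicate 4, with 3. Over all tested genes, GLA-SE against SE gave 16 calls as reported, 89 without rescaling, 3 with TMM, 0 with panel median scaling, 0 with the block, 72 and 108 with DESeq2's own and the reference size factors, 79 with all tumors in one fit, 269 in that fit without SE replicate 4 and 52 without GLA-SE replicate 3 and SE replicate 4. SE against PBS gave 0 by edgeR, 53 and 9 by DESeq2 with the reference and its own size factors and 1 by the methods' t-test. GLA-SE against PBS gave 255 with all 12 tumors in one fit and, higher against lower, 513 against 3 as reported, 148 against 168 with TMM, 190 against 152 with DESeq2's own size factors and 61 against 307 with panel median scaling.

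Directions turned as follows (log2 fold changes), and the cause was not tested. In GLA-SE against PBS, panel median scaling gave -0.28 for Col4a1, -0.16 for Fn1, -0.27 for Pdgfrb, -0.11 for Pecam1, -0.29 for Cdh5, -0.15 for Eng, -0.35 for Cd34 and -0.85 for Vegfa, TMM gave -0.45 for Vegfa and DESeq2's own size factors -0.40. In SE against PBS, Fn1 turned to -0.54 in the fit of all tumors but SE replicate 4, and with 1 tumor left out it ran from -0.54 to 1.66. In GLA-SE against SE, that fit gave 0.93 for Col1a1, 0.87 for Col3a1, 0.84 for Col4a1, 1.68 for Fn1, 0.50 for Pdgfrb, 0.82 for Cdh5 and 0.31 for Cd34. Leaving out GLA-SE replicate 3 and SE replicate 4 gave 0.92, 0.85, 0.85, 1.60, 0.61, 0.92 and 0.38 for the same genes and -0.21 for Vegfa. limma with a pseudocount of 1, and the methods' t-test with the same values, gave 0.71 for Col1a1, 0.60 for Col3a1, 0.25 for Col4a1, 0.91 for Fn1, 0.0433 for Pdgfrb, 0.24 for Cdh5 and -0.0542 for Vegfa, with a pseudocount of 10 these were 0.71, 0.60, 0.24, 0.90, 0.0160, 0.23 and -0.0524, and with the replicate block 0.80, 0.77, 0.32, 1.13, 0.0786, 0.30 and -0.0559. No rescaling gave 0.28 for Col1a1, 0.32 for Col4a1, 0.53 for Fn1, 0.13 for Pdgfrb and 0.40 for Cdh5. Panel median scaling gave -0.34 for Pecam1, -0.19 for Eng and -0.88 for Vegfa, TMM -0.0573 for Pecam1 and -0.45 for Vegfa, DESeq2's own size factors -0.11 and -0.54, all 20 reference genes -0.0329 for Vegfa and selection within the comparison 0.00361 for Cdh5. With 1 tumor left out, GLA-SE against SE ran from -0.74 to 0.93 for Col1a1, -1.46 to 0.86 for Col3a1, -0.44 to 0.84 for Col4a1, -0.52 to 1.68 for Fn1, -0.63 to 0.50 for Pdgfrb, -0.16 to 1.01 for Pecam1, -0.34 to 0.82 for Cdh5, -1.58 to 0.31 for Cd34 and -0.39 to 0.19 for Vegfa, and each highest value was that without SE replicate 4. The 4 tumors per group limit the precision of every comparison, and the lowest deposited count of the 10 genes was 55, for Pdgfrb.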
